A study of Mus musculus with 12 samples.

Results

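The ctrl tumours were the reference group of a study of extracellular vesicles (EVs) in breast cancer, and they are described here on their own as the baseline transcriptome of a 4T1 tumour. They were the 3 samples labelled miR-ctrl, of 12 tumours in the series, and they were chosen by that label alone. 4T1 is a mammary carcinoma line derived from BALB/c mice. To grow the tumours, 100000 4T1 cells were placed under the skin of the right flank, in BALB/c females aged 6 to 8 weeks. From day 5 the mice received 3 µg of EVs beside the tumour every 2 days, and tumours were taken on day 21. The EVs came from MS-1, a mouse endothelial cell line, and had been electroporated with cel-miR-67, a nematode microRNA with no mouse counterpart. Every mouse in the series received EVs, so the ctrl tumours were tumours treated with endothelial EVs and not untreated ones. The RNA was polyadenylated RNA of whole tumour tissue, in which carcinoma cells of a single line were mixed with the host's vessels, fibroblasts and leucocytes. The labels call the 3 samples replicates without naming the animal behind each.

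A 4T1 tumour in a BALB/c mouse is an immune-competent model of breast cancer without hormone receptors. The carcinoma cells secrete colony-stimulating factors, which draw myeloid cells out of the marrow, and macrophages and neutrophils are known to be frequent in such tumours. Fibroblasts build the collagen matrix, pericytes and endothelial cells form the vessels, and T cells and natural killer (NK) cells carry the granules that kill target cells. Each of these cell types has genes that few other cells transcribe, so the mRNA of a whole tumour gives a sketch of its composition. In whole tissue, however, fewer cells of a type and less RNA per cell cannot be told apart.

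Expression was given in TPM, the share of a message among all messages after correction for transcript length, scaled to sum to 1000000 in every sample, so that levels of different genes can be compared. The tables held 20285968, 22136156 and 21774189 estimated reads for tumours 1, 2 and 3. Of 118783 transcripts, 98.3% matched the gene annotation, and they were summed to 35944 genes. A total of 12688 genes reached 1 TPM in all 3 tumours, 12191 of them protein-coding, and the median level of those genes was 22.4 TPM. At this depth a gene without a read could still make up to 1.48e-05% of the reads of tumour 1 (3 reads of the total), a limit that covers counting error only. Genes of the Y chromosome served as a check of the floor, because the mice were female. Kdm5d, which has a close relative on the X chromosome, stood at 0.601, 1.07 and 1.26 TPM in tumours 1, 2 and 3, and Uty, Ddx3y and Eif2s3y stayed at or below 0.469 TPM. Values around 1 TPM are therefore no proof of expression. Long non-coding RNAs were not analysed here.

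The mRNA was concentrated in few genes. The 376 most abundant genes held 50% of all TPM, and the top 100 held 33.5%, 29.3% and 30.1% in tumours 1, 2 and 3. Among those 100 were 10 mitochondrially encoded genes, 40 ribosomal protein genes, 16 pseudogenes and 34 others. The median transcript length was 682 bases in the top 100 and 2253 bases in all genes at 1 TPM or more, so the most abundant messages were short ones. Of the top 100 by mean TPM, 88 were in the top 100 of each tumour.

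The 13 mitochondrially encoded protein genes, which supply subunits of the respiratory chain and the ATP synthase, held 7.73%, 5.73% and 5.81% of TPM (6.42% ± 1.13, SD, n = 3). Tumour 1 was the highest and the other two lay close together. mt-Atp8 ranked first of all genes with 14094, 12932 and 12414 TPM, but its message is 204 bases long and overlaps mt-Atp6, and the effective length used to scale it was about 58 bases in tumour 1, so its value carries more uncertainty than its read number implies. mt-Co3 followed with 13289, 8787 and 9296 TPM, and mt-Co1, mt-Co2 and mt-Atp6 ranked 4, 5 and 8. mt-Co2 had 13295, 5898 and 7567 TPM, a spread of 2.25-fold, but its identical pseudogene copy Gm28661 had 1466, 4257 and 2730.1 TPM in the opposite order. Summed with that copy, mt-Co2 stood at 14761, 10155 and 10297 TPM and spread 1.45-fold, less than mt-Cytb and mt-Co3 with 1.52-fold and 1.51-fold. The lowest of the group was mt-Nd5 with 413, 470.2 and 567 TPM, still rank 282. Pseudogenes held a further 7.09% to 7.57% of TPM. Of 77 pseudogenes at 100 TPM or more, 69 matched a protein-coding message with at least 95% identity over at least 90% of their length, 37 of them a ribosomal protein gene and 4 a mitochondrial gene. Reads of such a pair cannot be assigned with certainty, so the levels of mt-Co1, mt-Co2, mt-Atp6, mt-Nd3, Tpt1, Gapdh and many ribosomal protein genes are uncertain by the amount given to their copies.

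The 15 most abundant nuclear protein-coding genes were led by Lgals1, which encodes galectin-1, a sugar-binding protein that dampens T cells. It stood at 9337, 11824 and 8452 TPM in tumours 1, 2 and 3, a mean of 9871 ± 1749 (SD, n = 3), and was highest in tumour 2. Eef1a1, the factor that brings charged tRNA to the ribosome, followed with 7999 ± 589 TPM. Spp1, which encodes the secreted matrix protein osteopontin, reached 8612, 6631 and 8366 TPM and was lowest in tumour 2. Tpt1, with 7224 ± 1089.7 TPM, had a pseudogene twin at 100% identity (Tpt1-ps3, 3608 TPM on average). B2m, the invariant chain of MHC class I, stood at 5616, 6013 and 5330.4 TPM, a coefficient of variation (CV) of only 6.06%. The calcium-binding protein gene S100a6 had 4937 ± 650.0 TPM, the actin-sequestering thymosin gene Tmsb4x had 3643 ± 648 TPM, and Fth1, the heavy chain of the iron store ferritin, had 3618 ± 672 TPM. The other 7 were ribosomal, among them Rps27rt, Rps24, Rps12-ps3, Rps29, Rplp1 and Rpl41, and reached at most 4551 TPM on average. The products of the non-ribosomal leaders thus came from general translation, iron storage, the cytoskeleton, antigen presentation and the matrix, and not from markers of a single cell type.

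**Figure D1:**
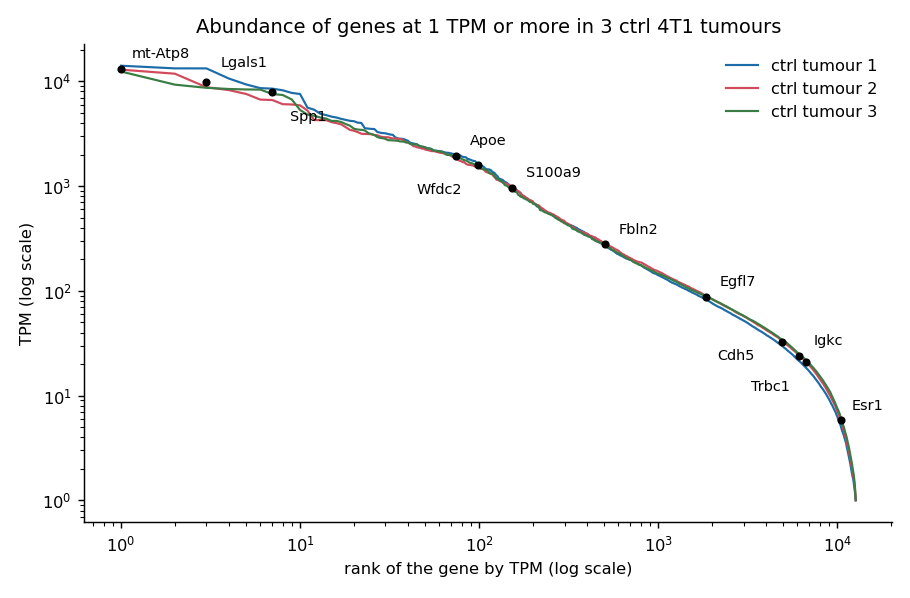
TPM of each gene against its rank, both on log scales, with 1 line for each of the 3 ctrl tumours and points for the mean TPM of named genes. The 3 lines lie almost on each other from mt-Atp8 at rank 1 down to 1 TPM, with the macrophage gene Apoe at rank 74, the carcinoma gene Wfdc2 at rank 98 and the endothelial gene Cdh5 at rank 4941.

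Epithelial genes of the carcinoma were abundant. Of 35 genes in the list, 27 reached 1 TPM in all tumours and 10 had a mean of 100 TPM or more. Their sum was 5569, 5797 and 5295 TPM in tumours 1, 2 and 3, a mean of 5553 ± 252 (SD, n = 3), the steadiest sum among the cell type lists relative to its size. Wfdc2, a small secreted protease-inhibitor-like protein, led with 1786, 1458 and 1527 TPM. The keratin pair of simple epithelia came next, Krt18 with 806, 921 and 731 TPM and Krt8 with 511, 732 and 543 TPM, and both keratins were highest in tumour 2. Krt7 behaved alike with 203, 364 and 175 TPM. Lcn2, an iron-scavenging protein that neutrophils also make, was lowest there with 568, 205 and 527 TPM. Adhesion genes were present at lower levels, with 94 ± 24.8 TPM for Epcam, 57.1 ± 13.4 TPM for the E-cadherin gene Cdh1 and 29.5 ± 10.1 TPM for Cldn7. Basal keratins and basal markers were low or near 0: Krt14 stood at 11.6, 32 and 14.3 TPM, whereas Krt5, Trp63 and Cdh3 did not exceed 0.965 TPM in any tumour. Cldn3 was also near 0 while its relative Cldn4 stood at 289 ± 45.3 TPM.

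Genes of the mesenchymal programme, which carcinoma cells and stromal cells can both transcribe, were also highly expressed. S100a4 had 3205, 2313 and 2717 TPM, the fibronectin gene Fn1 2176, 2183 and 3211 TPM and the vimentin gene Vim 2089, 2403 and 2167 TPM, and these 3 made up 95.9% of the sum of the 12 genes. Among the transcription factors that repress epithelial genes, Twist1 stood at 39.6 ± 4.21 TPM, Zeb2 at 29.5 ± 6.58 TPM and Snai1 at 20.8, 19.5 and 19.6 TPM, while Zeb1, Twist2 and Snai2 had means of 3.98, 2.5 and 1.44 TPM. Cdh2, the N-cadherin gene, stayed below 1 TPM in all tumours. Of the cadherins that epithelial and mesenchymal cells exchange, Cdh1 was thus above the floor and Cdh2 was not.

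Hormone receptors and receptors of the ErbB family, which are used to class breast cancers, were scarce. Erbb2 stood at 12.5, 17.8 and 14.5 TPM and the oestrogen receptor gene Esr1 at 4.72, 5.23 and 7.47 TPM. The progesterone receptor gene Pgr did not exceed 0.242 TPM, and Erbb4 and Prlr stayed below 1 TPM. The luminal factor Gata3 was the highest of the 11 genes with 43.9, 35.6 and 53.4 TPM, but T cells also use Gata3, and Foxa1, its usual partner in luminal cells, stayed below 1 TPM. In the p53 axis, Trp53 itself stood at 43.9, 47.5 and 45.7 TPM and its targets Mdm2 and Cdkn1a at 51.5 ± 8.07 and 44.7 ± 4.07 TPM. Cdkn2a, a tumour suppressor gene that restrains the cell cycle, was below 1 TPM in every tumour, with 0.557, 0.38 and 0.388 TPM.

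Glycolysis was among the most highly expressed pathways. Its 18 genes summed to 11360.5, 11898 and 11142 TPM, and 11 of them ranked in the top 1000. Gapdh led with 2095 ± 294 TPM, followed by the pyruvate kinase gene Pkm with 2000.0 ± 168 TPM and the aldolase gene Aldoa with 1485 ± 32.6 TPM. Ldha, which turns pyruvate into lactate, had 1477 ± 63.5 TPM. A pseudogene of Gapdh, Gm13394, held a further 2517 TPM. Targets of the hypoxia-inducible factors were present as well, with 809, 801 and 1049 TPM for Ndrg1, 237, 304 and 228 TPM for the carbonic anhydrase gene Car9 and 166, 271 and 206 TPM for the vessel growth factor gene Vegfa. None of the genes in either list differed more than 2-fold between tumours on the log2(TPM + 1) scale.

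Among stromal cells, fibroblast genes were the most abundant, and they were uneven between tumours. The 28 genes summed to 1237, 2265 and 1172 TPM in tumours 1, 2 and 3, a range of 1.93-fold. Col3a1, which encodes the chain of type III collagen, stood at 146, 336 and 128 TPM. Col1a1 and Col1a2, the chains of type I collagen, had 117, 245 and 102 and 129, 285 and 115 TPM. In each of these 3 genes the value of tumour 2 was higher than those of the other two tumours added together. Fbln2, a matrix glycoprotein, was the most abundant member with 237, 373 and 222 TPM, and Postn, which encodes the matrix protein periostin, had 126, 208 and 123 TPM. Of 26 members at a mean of 1 TPM or more, 13 spread more than 2-fold on the log2(TPM + 1) scale. Among protein-coding genes at that mean, 738 of 12668 did. Tumour 2 was highest in 22 of the 26 members, against 35.8% of all protein-coding genes. The exceptions were Pdgfra, a growth factor receptor that marks fibroblasts, with 12, 10.8 and 25.7 TPM, Col6a1 with 53.6, 79.4 and 80.3 TPM, Pi16 with 2.15, 2.4 and 3.29 TPM and Cxcl12 with 3.22, 2.48 and 2.77 TPM. Collagen IV of basement membranes followed another order, with 187, 266 and 335 TPM for Col4a1 and 86.2, 114 and 146 TPM for Col4a2, both lowest in tumour 1.

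Vessel genes were low but clearly present. The 24 endothelial genes summed to 524, 496 and 651 TPM, with 23 of them at 1 TPM or more in all tumours and none at a mean of 100 TPM. Egfl7, a secreted endothelial factor, led with 96, 70.5 and 95.2 TPM, followed by the TGF-beta co-receptor gene Eng with 67.8, 84.7 and 82.1 TPM and Ecscr with 65, 59.6 and 66.9 TPM. The junction genes Pecam1 and Cdh5 had 39.9, 34.3 and 61 and 25, 26.7 and 46.1 TPM, and both were highest in tumour 3. Of the list, 19 of 24 members at a mean of 1 TPM or more were highest in tumour 3, where 46.8% of all protein-coding genes were highest. Esm1, which marks the tip cells of sprouting vessels, varied most with 10.2, 4.4 and 23 TPM. Mural genes were lower, with a sum of 214, 275 and 241 TPM: Tagln and Acta2, which contractile fibroblasts also express, had 57.8, 85.7 and 51.7 and 42.2, 71 and 35.2 TPM, while the pericyte gene Rgs5 had 12.8, 11.1 and 26.6 TPM. The first pair was highest in tumour 2 with the collagens and the pericyte gene in tumour 3 with the endothelium. Lymphatic genes were scarce. Prox1, Mmrn1 and Lyve1 stayed below 1 TPM in every tumour, the receptor gene Flt4 had 2.15, 2.84 and 3.2 TPM, and the chemokine gene Ccl21a had 0, 3.64 and 0 TPM.

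Macrophage and monocyte genes had the largest sum of the 18 cell type lists, 8209, 6303 and 9535 TPM in tumours 1, 2 and 3 (8015 ± 1625, SD, n = 3). That sum was 1.47, 1.09 and 1.8 times the carcinoma sum in the same tumours, although the 2 lists hold different genes and the ratio is not a ratio of cells. The 3 most abundant members held 53.6% of the macrophage sum and 54.1% of the carcinoma sum. In tumour 2 the sums were 6303 and 5797 TPM, and Apoe alone gave 1303 TPM of the first. Apoe, which carries lipids, stood at 2015, 1303 and 2492 TPM and ranked 74. The lysozyme gene Lyz2 had 1535, 1061 and 2196 TPM, and the 3 chains of the complement protein C1q, made by tissue macrophages, had 765 ± 78.1, 545 ± 75.4 and 426 ± 58.5 TPM for C1qa, C1qb and C1qc. Csf1r, the receptor that keeps macrophages alive, stood at 81.7, 81.2 and 108 TPM. Genes tied to macrophage states were unequal. Arg1, which degrades arginine, had 401, 328 and 409 TPM, and Nos2, which makes nitric oxide from the same amino acid, had 22.5, 43.6 and 27.4 TPM with its highest value in tumour 2, where Arg1 was lowest. Mrc1, the mannose receptor gene, had 43, 22.9 and 53.3 TPM, whereas Cd163 had 1.72, 0.914 and 2.1 TPM and Marco, Retnla and Vsig4 were near 0. 24 of 32 members at a mean of 1 TPM or more were highest in tumour 3 as deposited, against 46.8% of all protein-coding genes. With median-of-ratios scaling the count was 18, against 34.6%, and after centring by transcript length 19, against 33.5%. The inflammatory monocyte gene Ly6c2 was one of the 3 highest in tumour 2, with 13.5, 29.1 and 14.5 TPM.

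Neutrophil genes summed to 1999, 1615 and 2464 TPM, and 3 genes made up 84.5% of that. S100a9 and S100a8, the paired subunits of calprotectin and the bulk protein of neutrophil cytosol, had 974, 659.6 and 1229.7 and 489, 312 and 633 TPM and kept the same order of tumours. The third gene, Mmp9, went the opposite way with 242, 440.1 and 154 TPM; carcinoma cells and macrophages can also make this gelatinase. Of 21 members at a mean of 1 TPM or more, 17 were highest in tumour 3, against 46.8% of all protein-coding genes. Tumours 1 and 2 were highest in 2 members each. The receptors Csf3r (26.8, 24.3 and 54.3 TPM) and Cxcr2 (8.09, 6.23 and 13.9 TPM) were highest in tumour 3 and lowest in tumour 2. The granule genes Ngp (12.6, 8.83 and 25.4 TPM) and Ltf (10.9, 4.06 and 13.4 TPM) had the same order. The early granule genes Elane, Mpo and Cebpe, used by marrow precursors, stayed below 1 TPM. The median member was 1.02 higher in tumour 3 than in tumour 2 on the log2 scale, the largest median gap among lists with at least 9 members at a mean of 1 TPM, while the median protein-coding gene was 0.05 higher.

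Other myeloid cells left fainter traces. Of the 12 dendritic genes, Irf8 (72.2 ± 10.6 TPM) and Itgax (33.4 ± 11.3 TPM) led, but macrophages use both. The more specific Clec9a, Xcr1, Flt3 and Siglech had means of 1.54, 0.602, 0.425 and 0.337 TPM. Among mast cell, basophil and eosinophil genes, Mcpt8, a basophil protease, was highest with 9.14, 11.4 and 4.57 TPM, and the eosinophil gene Epx was at or near 0 in all tumours.

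The factors that recruit and sustain these cells were measured in the same tumours. Csf3, the granulocyte colony-stimulating factor gene that 4T1 cells are known to secrete, stood at 156, 145 and 137 TPM, a CV of 6.47%. Csf1 had 91.8, 90.2 and 109 TPM, Csf2 9.25, 8.8 and 8.21 TPM and Il1b 145, 223 and 237 TPM. Of the CC chemokines, Ccl6 (351, 185 and 357 TPM) and Ccl8 (219.9, 103 and 323 TPM) led and were lowest in tumour 2, whereas the monocyte attractant Ccl2 was even with 96.9, 87.5 and 86.6 TPM. Of the CXC chemokines, the interferon-induced Cxcl10 was highest in tumour 2 with 122, 253 and 99.4 TPM, while the neutrophil attractants Cxcl1 and Cxcl5 were lowest there with 148, 89.1 and 199.6 and 81.4, 31.2 and 116 TPM. Csf3 did not follow the order of the neutrophil genes. Whether Csf3, Cxcl1, Cxcl5 or any other of these factors had a part in that order was not tested.

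Lymphocyte genes were low. T cell genes summed to 141, 119 and 148 TPM, so the macrophage sum was 58.3, 52.7 and 64.3 times as high. These lists hold different genes, and the ratio is not a ratio of cells. It also depends on the genes kept: with protein-coding genes only, the mean T cell and macrophage sums were 88.8 and 8707 TPM. Cd3e stood at 8.15, 7 and 7.33 TPM, Cd8a at 10.1, 9.51 and 9.84 TPM and Cd4 at 1.49, 0.994 and 2.87 TPM, and Foxp3, which defines regulatory T cells, stayed below 1 TPM. The T cell receptor constant genes Trbc1, Trbc2 and Trac had 20.8 ± 3.04, 19.3 ± 3.93 and 14.4 ± 2.24 TPM. B cell genes were lower still: Ms4a1 and Cd79a stayed below 1 TPM, and most of the sum came from the immunoglobulin constant genes Igkc (41.8, 13.9 and 15.9 TPM) and Ighm (17.2, 19.2 and 11.5 TPM). Igkc was highest in tumour 1, with the plasma cell gene Jchain (5.13, 0.993 and 2.17 TPM). Checkpoint genes were led by Nt5e (169.9, 203 and 188 TPM), an ectoenzyme that makes adenosine, and Lgals9 (148, 234 and 158 TPM). Cd274, which encodes PD-L1, stood at 42.5, 48.4 and 53.7 TPM and its receptor gene Pdcd1 at 7.02, 4.11 and 5.22 TPM, whereas Ctla4 was at or near 0 in all tumours.

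**Figure D2:**
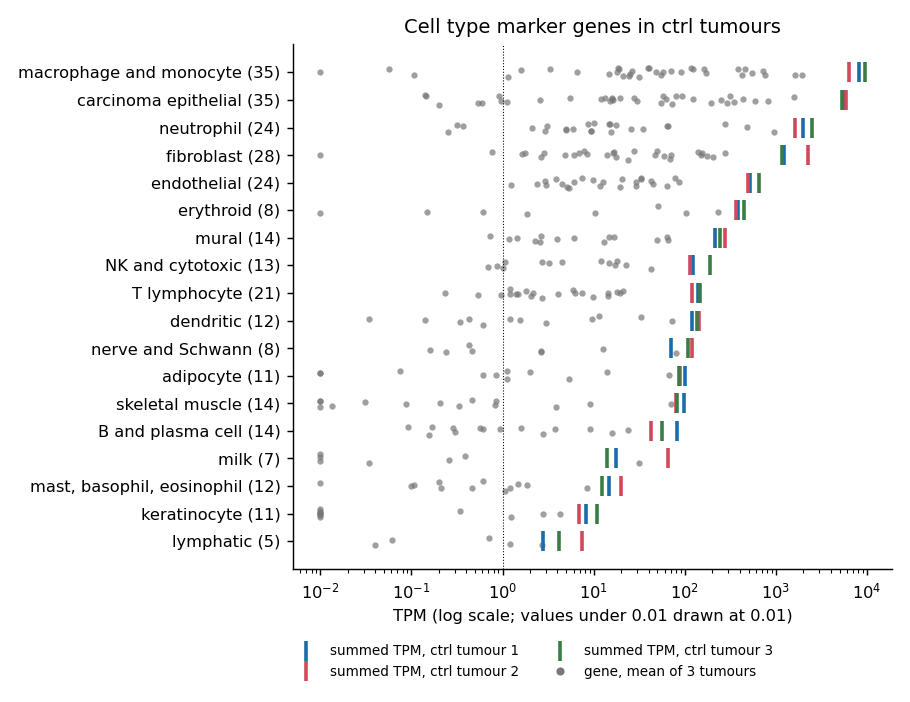
Marker genes of 18 cell types, ordered by summed TPM, with the number of genes in brackets. Grey points give the mean TPM of each gene, coloured bars the summed TPM of each ctrl tumour, and the dotted line 1 TPM; macrophage, carcinoma, neutrophil and fibroblast lists have the highest sums, and the milk and fibroblast bars of tumour 2 stand apart.

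Granzymes, the proteases of cytotoxic granules, included the most uneven genes of the tumours. Gzmg had 114, 26.6 and 378 TPM in tumours 1, 2 and 3, Gzmf 164, 43.1 and 434 TPM and Gzmd 102, 31.4 and 287 TPM. All 3 were highest in tumour 3 and lowest in tumour 2, a spread of 14.2-fold, 10.1-fold and 9.14-fold. Gzmc (50.4, 32.5 and 145 TPM), Gzme (56.4, 35.9 and 119 TPM, named after its values were seen) and the perforin gene Prf1 (13.5, 7.27 and 32.7 TPM) kept that order. Gzmb, the main granzyme of T and NK cells, varied less with 31.2, 29.9 and 67.7 TPM, and Gzma, from another chromosome, had 10.7, 10.7 and 14.5 TPM. Markers of the cells themselves were mixed. Nkg7 stood at 24.6, 17.6 and 25.3 TPM and Klrd1 at 16.6, 10.3 and 17.4 TPM, and they spread less than Gzmb, as did Cd3e. By the ratio of the highest to the lowest tumour, some scarcer markers spread more than the 2.26-fold of Gzmb. Among them were Ncr1 with 0.407, 0.573 and 2.24 TPM, Klrb1c with 1.53, 0.21 and 0.852 TPM, Cd28 with 0.557, 0.618 and 1.7 TPM, Foxp3 with 0.514, 0.221 and 0.891 TPM and Cd4. Most of these values were near or below 1 TPM. On the log2(TPM + 1) scale only Ncr1 of those named exceeded Gzmb, with 1.2 against 1.15. The mean levels of Gzmc, Gzmd, Gzme, Gzmf and Gzmg were each above that of Gzmb and of every T cell gene in the list. Gzmb and these 5 genes lie on the minus strand of chromosome 14 (GRCm38) in 1 cluster, from 56117626 at the end of Gzme to 56262260 at the start of Gzmb, and as members of 1 family they may share reads. Gzmn, which lies within that span and was named after its values were seen, was near 0 with 0.427, 0.0836 and 0.0893 TPM and did not share the order.

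The sequences before the starts of Gzmc, Gzmd, Gzme, Gzmf and Gzmg were alike, and a stretch is shown because it lines up without a gap. Gzmb was also highest in tumour 3 and lowest in tumour 2, and the sequence before Gzmn was not compared. The RefSeq promoter windows (GRCm38.p6) of Gzmd and Gzme were identical at 95.2% of 250 bases in a gapped alignment, those of Gzmf and Gzmg at 85.2% and those of Gzmc and Gzmf at 77.2%, whereas Gzmb shared 49.2% to 54% with the 5 others. The following 30 bases, read 5′ to 3′ on the minus strand, were cut to begin at the letters ttaagtaa, so those letters match by construction. With those letters included, 26 positions were identical in all 5 genes, and capitals mark the positions that differ.
Gzmc, chr14:56234695-56234724: ttaagtaatgtgaCGtcaaTcAgaagcaga
Gzmd, chr14:56132635-56132664: ttaagtaatgtgaTGtcaaCcAgaagcaga
Gzme, chr14:56120668-56120697: ttaagtaatgtgaCAtcaaCcAgaagcaga
Gzmf, chr14:56211470-56211499: ttaagtaatgtgaCGtcaaTcTgaagcaga
Gzmg, chr14:56159637-56159666: ttaagtaatgtgaCGtcaaTcAgaagcaga
A shared stretch is a description of the sequence, and its part in the measured levels was not tested.

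Antigen presentation was strongly expressed. Besides B2m, the class I heavy chain genes H2-K1 and H2-D1 had 3189, 2850.4 and 2507 and 2163, 2333 and 1993 TPM, and the peptide transporter genes Tap1 and Tap2 had 153, 209 and 134 and 112, 155 and 109 TPM. 11 of 13 class I genes were highest in tumour 2 as deposited, against 35.8% of all protein-coding genes. With median-of-ratios scaling only 7 were, against 32.3%, so this order was not firm. The annotation is that of C57BL/6 mice, which carry other MHC alleles than BALB/c mice, so the values of H2 genes depend on how well reads match a foreign allele. Class II genes, used by macrophages, dendritic and B cells, had another order: Cd74, the invariant chain, had 3514, 2804 and 2664 TPM, H2-Aa 1599, 1197 and 1159 TPM and H2-Ab1 1151, 793 and 813 TPM. As deposited, 7 of 9 members were highest in tumour 1, against 17.3% of all protein-coding genes. The count was also 7 with median-of-ratios scaling, against 33.1%, and after centring by transcript length, against 30.6%. H2-Ea-ps, named after its values were seen, had 1386, 1139 and 920.1 TPM in tumours 1, 2 and 3 and was the only pseudogene above 1000 TPM without a matching coding gene. It is a pseudogene in C57BL/6 mice, whereas BALB/c mice carry an intact copy that makes the alpha chain of the I-E molecule.

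Genes induced by interferon, the cytokines of antiviral defence, had the most uniform order of any list with at least 9 members at a mean of 1 TPM. Their sum was 4643, 6238 and 4058 TPM. Of the members at a mean of 1 TPM or more, 21 of 21 were highest in tumour 2, against 35.8% of all protein-coding genes. With median-of-ratios scaling the count was 20, against 32.3%. Isg15, a ubiquitin-like protein, had 255, 489 and 196 TPM and the regulator gene Irf7 146, 240.2 and 132 TPM. Mx1, a trap for viral ribonucleoproteins, had the widest spread of the members at a mean of 10 TPM or more with 13, 46 and 18.8 TPM. The most abundant member, Ifitm3, was nearly flat with 1903, 1929 and 1548 TPM. Interferon genes themselves were low: Ifnb1 did not exceed 0.48 TPM, and Ifng, made by T and NK cells, had 2.24, 3.96 and 1.82 TPM and was also highest in tumour 2. The chemokine Cxcl10 and the enzyme gene Ido1 (8.13, 20.4 and 4.39 TPM), both classic interferon targets in other lists, followed the same order.

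Interferon-induced genes are known to be switched on through a DNA element with the letters GAAANNGAAA. In RefSeq promoter windows (GRCm38.p6), 9 of 17 interferon genes with a window held these letters on either strand within the 250 bases before the start, against 3.46% of 27025 genes. Matches of the motif can overlap one another in a window and were counted once per gene. The windows of the 4 most abundant of the 9 genes are shown because they share the order of tumours described above, with the match nearest the start in capitals, read 5′ to 3′ on the strand of the gene. TTTCNNTTTC is the same element read on the other strand.
Bst2, chr8:71537577-71537606: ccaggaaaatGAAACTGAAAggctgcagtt
Isg15, chr4:156200865-156200894: aaaggaaaccGAAACAGAAAatagctctgg
Gbp2, chr3:142620594-142620623: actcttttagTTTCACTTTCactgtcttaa
Gbp3, chr3:142559995-142560024: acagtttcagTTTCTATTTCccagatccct
The letters are a description of these windows and do not show that a factor was bound.

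Proliferation genes shared the order of the interferon genes. The 31 cell cycle genes, all at 10 TPM or more on average, summed to 2896, 4116 and 2557 TPM. Of these genes, 28 were highest in tumour 2, against 35.8% of all protein-coding genes. Top2a, which untangles replicated DNA, had 286, 517 and 237 TPM, the mitotic kinase gene Cdk1 192, 315 and 161 TPM and the proliferation marker Mki67 29.9, 53.9 and 34.1 TPM. Ccnd1, which starts the cycle, had 329.7, 512 and 287 TPM. Cdk4 was the most abundant member and varied little with 556, 542 and 509 TPM, and Myc and Cdk6 were highest in tumour 3 with 69.8, 67.1 and 79.3 and 14.2, 18.8 and 22 TPM. The median member was lower in tumour 3 than in tumour 2 by 0.85 on the log2 scale, close to the 0.78 of the interferon list and the 0.87 of the fibroblast list.

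**Figure D3:**
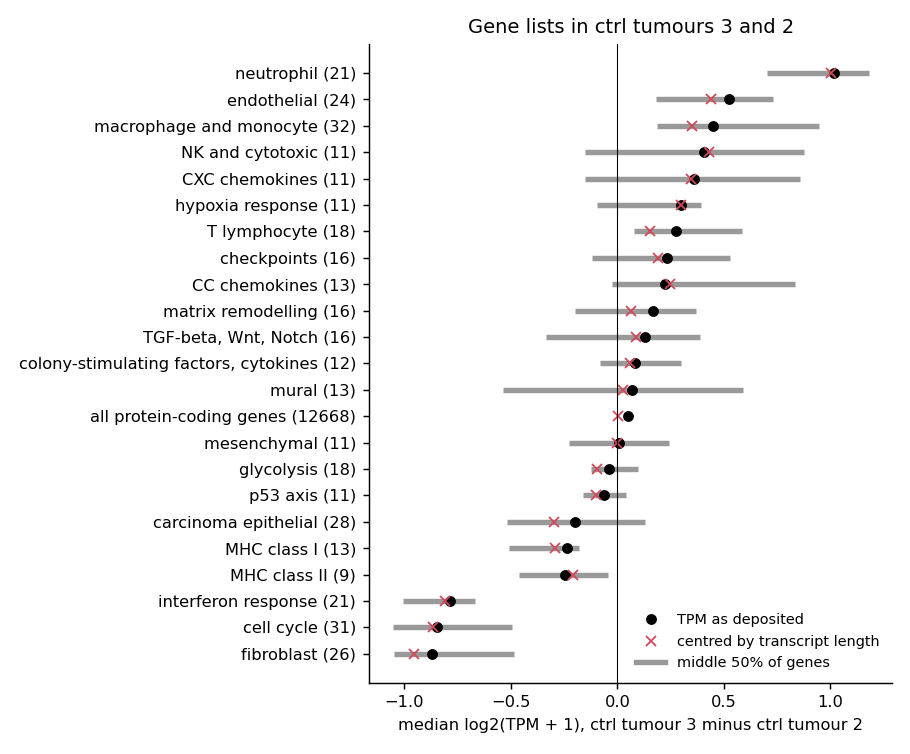
Median difference of log2(TPM + 1) between ctrl tumours 3 and 2 for each list with at least 9 members at a mean of 1 TPM (number in brackets), with the middle 50% of members as bars and the median after centring by transcript length as crosses. Neutrophil genes lie near 1.02, all protein-coding genes at 0.05, and interferon, cell cycle and fibroblast genes between -0.87 and -0.78.

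Matrix genes other than the fibroblast list were dominated by Spp1, which made the matrix list sum to 10679, 9347 and 10991 TPM. Sparc, a collagen-binding protein, had 625, 747 and 657 TPM. Proteases of several families were present: the membrane-bound Mmp14 had 188, 294 and 298 TPM, the macrophage elastase gene Mmp12 133, 99.6 and 211 TPM and Mmp3 an even 104, 108 and 109.8 TPM, while Mmp7 was at or near 0. Tumour 2 stood apart in Lama3 and Lamb3, which encode chains of laminin-332, the laminin that anchors epithelia to their basement membrane. Lama3 had 6.57, 55.4 and 9.11 TPM and Lamb3 26.2, 135 and 34.9 TPM, so both were highest in tumour 2, by 8.43-fold and 5.15-fold over the lowest tumour. The matrix protein tenascin, encoded by Tnc, shared that order with 55.7, 175 and 53.8 TPM.

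Tissues at the edge of a subcutaneous tumour left little RNA. The keratinocyte genes Krt1, Lor, Flg and Ivl were at 0 in all tumours, while Krt10 (3.97, 3.6 and 5.32 TPM), Sbsn (2.91, 2.02 and 3.43 TPM) and Krt15 (1.34, 1.26 and 1.1 TPM) of the same list were low but present. The muscle genes Ckm, Myh4 and Ttn stayed below 1 TPM. The muscle sum of 98.4, 79.4 and 82.6 TPM was mostly Tnni2, with 82.3, 63.7 and 67.2 TPM, while its muscle partners Tnnc2, Acta1 and Mylpf did not exceed 6.36 TPM. Among adipocyte genes Fabp4, which macrophages and endothelium also express, had 78.2, 52 and 68.4 TPM, whereas the adipocyte hormone gene Adipoq had 0.825, 1.57 and 0.992 TPM. Haemoglobin messages of blood were present at 219.5, 215 and 259 TPM for Hbb-bs. The Schwann cell markers Sox10 and S100b stayed below 1 TPM in every tumour, although Ncmap and Mbp of the same list had 53.1, 99.6 and 86.1 and 11.5, 12.2 and 14.6 TPM. Milk genes were near 0 except the kappa-casein gene Csn3, with 16.8, 64.1 and 13 TPM and its highest value in tumour 2.

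Ligands and receptors were often far apart in level, as shown by 22 pairs compared per length in TPM. Spp1 exceeded its receptor gene Cd44 by 46 times on average, and Vegfa exceeded Kdr, the main receptor of endothelial cells, by 35.6 times. Csf1 and Csf1r were almost equal at 96.8 ± 10.2 and 90.3 ± 15.3 TPM. The receptor was the more abundant side in 7 of the pairs. Axl stood at 204, 278 and 298 TPM with its ligand Gas6 at 12.6, 6.1 and 17.1 TPM, Met at 18.8, 30.9 and 24.6 TPM with its ligand Hgf at 1.05, 1.72 and 2.28 TPM, and Cxcr4 at 30.4, 18.5 and 40.6 TPM with Cxcl12 at 3.22, 2.48 and 2.77 TPM. A ratio of messages gives no amount of protein, and the cells that made each message cannot be told apart in whole tissue.

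The 3 tumours were alike in most genes. Over 8928 protein-coding genes with a mean of 10 TPM or more, the median CV was 13.5%, against 2.93% from counting error alone, and the median ratio of the highest to the lowest tumour was 0.36 on the log2(TPM + 1) scale. Rank correlations across these genes were 0.961 between tumours 1 and 2, 0.962 between 1 and 3 and 0.951 between 2 and 3; genes are not independent replicates, and the values are descriptions. No pair of samples was the same library sequenced again, as read counts differed 37.6 to 43.6 times more than sampling alone would give (chi-square per degree of freedom). That value cannot tell whether the samples came from different animals. A total of 335 genes (3.75%) spread more than 2-fold and 15 more than 4-fold. Of the 335, 159 were highest in tumour 3, 155 in tumour 2 and 21 in tumour 1. The pattern with tumour 3 at the top and tumour 2 at the bottom held 91 genes, and the reverse pattern held 91. Tumour 1 was the lowest in 132 genes, 68 with tumour 3 and 64 with tumour 2 at the top, against 107 for tumour 2 and 96 for tumour 3.

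Transcript length moved with the differences that involve tumour 1. Split into 5 bins by transcript length, the median gene of the shortest bin was lower in tumour 2 than in tumour 1 by 0.08 and lower in tumour 3 by 0.12 on the log2 scale, and that of the longest bin was higher by 0.32 and 0.46. Between tumours 2 and 3 the range over the bins was -0.03 to 0.13. Over all lengths the median gene was 0.14 higher in tumour 2 and 0.15 higher in tumour 3 than in tumour 1, and 0.03 higher in tumour 3 than in tumour 2. A gene that was lowest in tumour 1 by such amounts did not depart from the rest, and orders between tumours 2 and 3 were touched least. After the values were centred within 20 bins of length, 20 of 20 protein-coding interferon genes, 28 of 31 cell cycle genes and 23 of 26 fibroblast genes were highest in tumour 2, and 17 of 21 neutrophil, 16 of 24 endothelial and 19 of 32 macrophage genes in tumour 3. Over all protein-coding genes the centred shares were 30.6%, 35.8% and 33.5% for tumours 1, 2 and 3. With median-of-ratios factors, 14 of 24 endothelial genes were highest in tumour 3, against 19 as deposited, while the share over all protein-coding genes went from 46.8% to 34.6%.

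**Figure D4:**
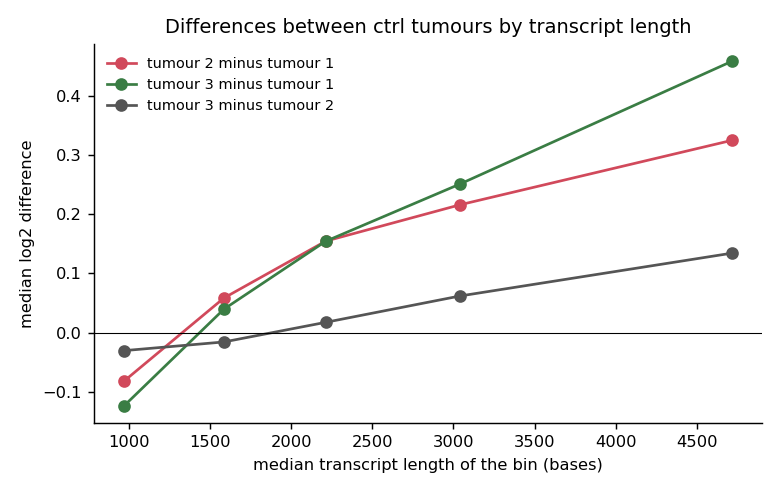
Median log2 difference between pairs of ctrl tumours in 5 bins of transcript length, plotted at the median length of the bin in bases. Both comparisons with tumour 1 climb with length, to 0.32 and 0.46, and the comparison of tumours 3 and 2 reaches 0.13.

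The 15 protein-coding genes with the widest spread fell into the patterns already described. Besides Gzmg, Gzmf, Gzmd, Gzmc and Prf1, those highest in tumour 3 and lowest in tumour 2 were the vessel gene Esm1, the glycosyltransferase gene Galnt15 (16.6, 5.04 and 38.2 TPM) and BC100530 (20.2, 8.38 and 37.2 TPM). Fgfr2, a receptor of fibroblast growth factors, had 7.36, 21.9 and 55.1 TPM and was lowest in tumour 1. Highest in tumour 2 were Lama3, Lamb3, Csn3, the apolipoprotein L gene Apol6 (47.8, 118 and 24 TPM) and the cytokine gene Il24 (11.1, 37.9 and 7.8 TPM). Gm10985 stood second in the list, but it rested on 0.117, 3.52 and 3.41 estimated reads in the 3 tumours, so its spread is that of single reads on a very short transcript.

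**Figure D5:**
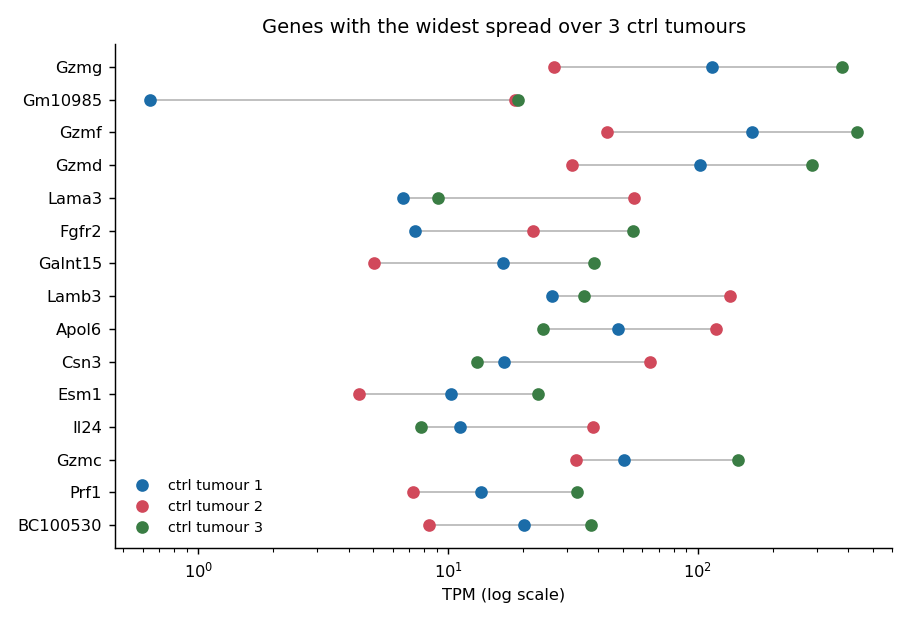
TPM on a log scale of the 15 protein-coding genes with the widest spread among genes with a mean of 10 TPM or more, with 1 point per ctrl tumour. Granzyme genes, Prf1, Esm1, Galnt15 and BC100530 run from tumour 2 to tumour 3, and Lama3, Lamb3, Csn3, Apol6 and Il24 have tumour 2 at the top.

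At the other end, the 10 steadiest genes with a mean of 50 TPM or more varied by a CV of 0.396% to 0.945%. They were Hsd17b11 (82.7, 82.3 and 83 TPM), Akr1b8, Ywhab, Leprot, Ola1, Dctn3, Psmb6, Puf60, Hnrnpk and Mpnd. Psmb6, a catalytic subunit of the proteasome, had 207, 207 and 205 TPM, and Hnrnpk, an RNA-binding protein of the nucleus, had 742, 734 and 748 TPM, the most abundant of the 10. Counting error alone gave Hsd17b11 a CV of 2.21%, above the one observed, and the same held for 9 of the 10. The exception was Hnrnpk, with 0.9% observed and 0.76% from counting error.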

How the data were processed

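RNA of 3 ctrl tumours was sequenced by the authors from stranded, polyadenylated libraries. Per the labels, the authors quantified transcripts with Salmon on GRCm38, and the deposited tables give TPM and estimated counts (expected counts, not whole numbers) per transcript. The methods and the tables name different Ensembl releases. Here transcript identifiers without version were matched to the GENCODE M21 annotation and TPM summed per gene (Python 3.11.15, pandas 2.3.3). Depth was 20285968 to 22136156 estimated reads, and the reads behind a value near 1 TPM depend on transcript length. In tumour 2 the shorter Adipoq had 26 reads at 1.57 TPM, and the longer Kdm5d had 92.1 reads at 1.07 TPM. Genes counted as present had 1 TPM in every tumour. Spread was measured on log2(TPM + 1) among genes with a mean of 10 TPM or more. With 1 group no test was run, and values are means ± SD. The calculation of spread was tested on simulated data.

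The 33 gene lists and 22 pairs were chosen with earlier results of these data known. Named genes were the 15 most abundant nuclear protein-coding genes, list and pair members, the 15 most variable genes, the 10 steadiest genes at 50 TPM or more and mitochondrial genes. Pseudogenes were matched to coding transcripts with BLAST 2.17.0. Alternatives changed the TPM scale, the genes and transcripts kept, the floor, the pseudocount and the tumours used. The 9 other tumours were not used here, and a few of the genes this rule names are not reported here.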

Additional observations from a re-analysis of the deposited data

How the results depend on the processing

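Of 115 values recomputed for 28 results under 12 other settings, 98 stayed within the limit set for their kind. That limit was 1 SD between tumours for a sum or share and 1.5 times for a count. For log2 values it was the median SD of a gene, 0.19. Each sum had its own SD, 252 TPM for carcinoma and 1625 TPM for macrophages. A list that varied more between tumours thus had a wider limit, and staying within it does not make a sum sturdier. None of the log2 differences changed sign. Leaving out mitochondrially encoded genes raised the carcinoma sum to 5974 TPM and the glycolysis sum to 12335 TPM by rescaling alone. With protein-coding genes only, the sums were 6033 TPM for carcinoma, 12456 TPM for glycolysis, 15135 TPM for MHC class I and 11231 TPM for matrix genes. That setting drops receptor and immunoglobulin constant genes, so the T cell sum was 88.8 TPM and the B cell sum 21.9 TPM. With protein-coding transcripts only, the sums were 5289 TPM for carcinoma, 66.4 TPM for T cells, 19.2 TPM for B cells, 2272 TPM for the cell cycle, 9889 TPM for MHC class I and 8770.3 TPM for glycolysis. That setting also lowered the macrophage sum from 8015 to 6669 TPM and the fibroblast sum from 1558 to 1297 TPM, both inside their wider limits. Folding pseudogenes into the genes they match, a setting chosen after seeing the data, gave 14577 TPM for glycolysis. It left every other list sum that was recomputed as it was, so those values add nothing to the count of 98. The number of genes with more than 2-fold spread was 738 with a mean of at least 1 TPM and 809 with no filter, and 97 to 219 when a tumour was left out, lowest without tumour 2 and highest without tumour 1, since fewer samples give a smaller range. Centring by transcript length, also chosen after seeing the data, left 287. No paired analysis was possible because a single group was described. Depth limits the genes near 1 TPM, most of all those with short transcripts, where few reads carry the value.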
